A study of Homo sapiens with 16 samples.

Results

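FOS, FOSB, FOSL1, FOSL2, JUN, JUNB, JUND and ATF3 encode subunits of activator protein 1 (AP-1), and their mRNA levels were followed in HCT116 cells, a human colorectal carcinoma line. The 8 genes were taken by symbol from a table of reads counted over 60676 Ensembl genes. All 8 were found as 1 row each, and all 8 passed the filter on low counts, as did 14912 genes in all. On hg38 with GENCODE 29 annotation, the Fos genes are FOS (ENSG00000170345, chr14:75278774-75282230, plus strand), FOSB (ENSG00000125740, chr19:45467995-45475179, plus), FOSL1 (ENSG00000175592, chr11:65892049-65900573, minus) and FOSL2 (ENSG00000075426, chr2:28392448-28417312, plus). The Jun genes are JUN (ENSG00000177606, chr1:58780788-58784327, minus), JUNB (ENSG00000171223, chr19:12791496-12793315, plus) and JUND (ENSG00000130522, chr19:18279760-18281622, minus), and ATF3 (ENSG00000162772) lies at chr1:212565334-212620777, plus.

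AP-1 is a dimer of basic leucine zipper proteins that binds the TRE, a short palindrome in promoters and enhancers. Fos proteins do not pair among themselves and need a Jun partner, whereas Jun proteins also pair with each other and with ATF proteins. FOS, FOSB, JUN, JUNB and ATF3 are immediate early or stress genes, whose promoters hold RNA polymerase II in a pause just after the start site until a signal releases it. Negative elongation factor (NELF), of which NELFE is the RNA-binding subunit, keeps the polymerase in that pause, and the kinase P-TEFb releases it.

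The cells carried an shRNA against NELFE (shNELFE) or a control shRNA (shCTL), and every group carried one of these constructs. Each kind received EPZ-5676 with HMBA, HMBA alone, EPZ-5676 alone or DMSO, which makes 8 groups of 2 libraries. HMBA, hexamethylene bisacetamide, frees P-TEFb from its inhibitory complex with HEXIM1, and EPZ-5676 (pinometostat) blocks DOT1L, a methyltransferase of histone H3. The sources used here give no dose, time or shRNA vector. They also do not say whether libraries of a group are separate cultures, and they may be technical repeats. A p-value is therefore not shown to reflect the spread among separate cultures.

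The comparisons rest on 9 of the 16 libraries, which are the 8 numbered 2 and replicate 1 of shNELFE cells with EPZ-5676 and HMBA. Across all genes, these 9 correlated with each other at r of 0.964 to 0.992 and with the other 7, all numbered 1, at 0.869 to 0.903. In the 9, NELFE stood at 13 to 21.6 CPM (counts scaled to library size) with shNELFE and at 67.8 to 81 CPM with shCTL. HEXIM1, a gene known to be induced by HMBA, stood at 338 to 385 CPM with HMBA and at 66.7 to 81.5 CPM without it. In the 7, NELFE at 81.5 to 144 CPM in libraries labelled shNELFE overlapped the 99.5 to 278 CPM in those labelled shCTL, and HEXIM1 at 46.7 to 73.7 CPM in those labelled HMBA overlapped the 42.8 to 66.5 CPM in those labelled without it. Total counts were 13428893 to 17867037 in the 9 and 19626522 to 21319666 in the 7. In the 9, the epithelial markers summed to 4864 to 8296 CPM with HMBA and 4646 to 6195 CPM without. The 4 blood cell markers, of which CD3E had 0 counts, summed to at most 0.813 CPM. Of the 9 mesenchymal markers, LUM had 0 counts, but FN1 stood at 19.3 to 46 CPM and COL1A1 at 9.66 to 50.8 CPM. With 1 library in 7 of the 8 groups, the spread came from a model with terms for shRNA, HMBA, their product and EPZ-5676, which leaves 4 residual degrees of freedom. A fit of 8 group means leaves only 1. The rest is variation between treatment groups that the model leaves out, and a p-value reflects that too. When all 16 libraries were fitted, edgeR called none of the 8 genes in any of the 6 comparisons. The HMBA effect over all 16 was 4.49 ± 1.27 for FOS in shNELFE cells (SE, log2 scale, edgeR adjusted p = 0.706) and 2.82 ± 1.17 in shCTL cells (adjusted p = 1). FOS, FOSB, JUNB and ATF3 in shNELFE cells and FOS in shCTL cells had an unadjusted p under 0.05 there. So did 1069 genes in shNELFE cells and 342 in shCTL cells, of 15853 tested. The sign of the HMBA effect over all 16 was the same as over the 9 for each of the 8 genes in both backgrounds. The 16 include the 9, so this is no separate support. Among the effects smaller than their SE were JUN (0.13 ± 0.94) and JUND (0.13 ± 0.79) in shCTL cells and FOSL2 (-0.13 ± 1.03) in shNELFE cells. With the replicate number as a block in that fit, FOSL1 in shNELFE cells changed sign, to 0.10.

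Of the 8 genes, 6 rose with HMBA in both shRNA backgrounds, FOSL1 fell in both and FOSL2 fell in shNELFE cells. FOS, FOSB, JUN, JUNB, JUND and ATF3 were called higher by edgeR's quasi-likelihood test at a Benjamini-Hochberg adjusted p under 0.05 in shNELFE cells, where 25.5% of all genes tested were called higher. FOSL1 and FOSL2 were called lower there, as were 27.1% of all genes. In shCTL cells, 6 genes were again called higher, against 20.5% of all genes, and 1, FOSL1, was called lower, against 24.3% of all genes. The median log2 fold change over the 8 genes was 2.24 in shNELFE cells and 1.67 in shCTL cells, against 0.02 and 0.01 over all genes. For every one of the 8 genes, the 5 libraries with HMBA and the 4 without did not overlap, with 6 genes wholly above and 2 wholly below. Over all genes, 23.9% lay wholly above and 26.2% wholly below.

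FOS, the first Fos protein described and the partner of JUN in the classical AP-1 dimer, had the widest relative range. It stood at 256 and 229 CPM in the 2 libraries of shNELFE cells with EPZ-5676 and HMBA, at 156 CPM in shNELFE cells with HMBA, at 118 CPM in shCTL cells with both compounds and at 99.3 CPM in shCTL cells with HMBA. Without HMBA it stood at 6.62 CPM in shNELFE cells with EPZ-5676, 6.23 CPM in shNELFE cells with DMSO, 7.29 CPM in shCTL cells with EPZ-5676 and 13.3 CPM in shCTL cells with DMSO. The lowest library with HMBA was thus well above the highest without it. The HMBA effect was 5.02 ± 0.31 on the log2 scale in shNELFE cells (SE, edgeR adjusted p = 2.39e-06) and 3.38 ± 0.30 in shCTL cells (adjusted p = 2.39e-05). In shCTL cells it moved between 2.83 and 4.08 when 1 library at a time was left out.

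**Figure D1:**
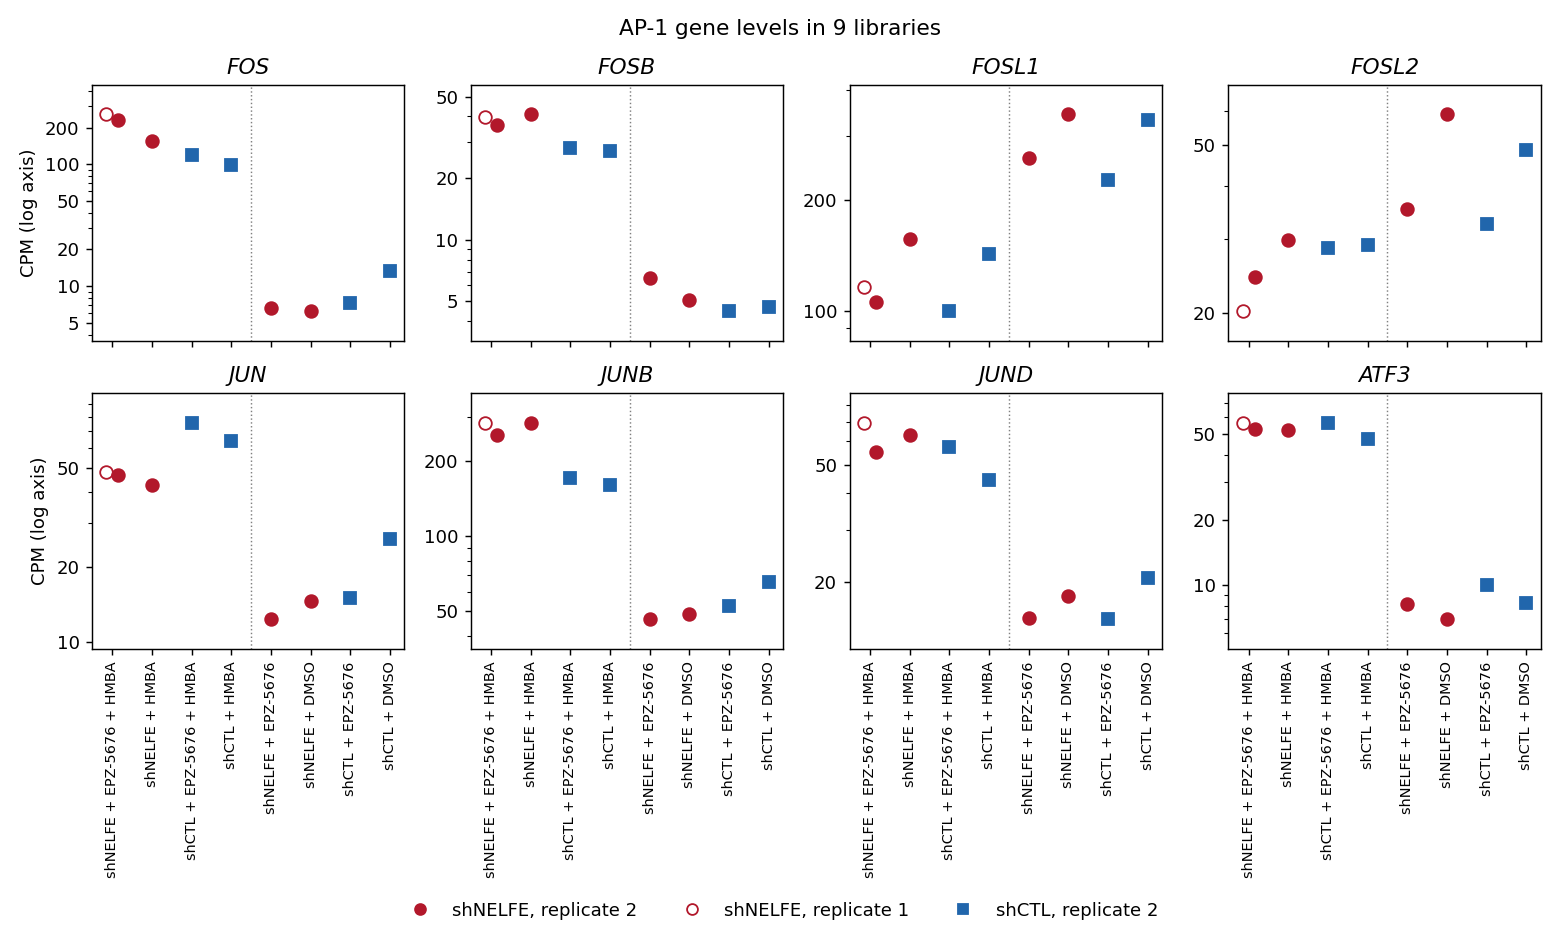
CPM of each AP-1 gene (log axis, TMM-scaled over 9 libraries) by group, with 1 point per library, red circles for shNELFE and blue squares for shCTL, and libraries with HMBA left of the dotted line. FOS lies at 99.3 to 256 CPM on the left and 6.23 to 13.3 CPM on the right, while FOSL1 lies at 99.8 to 157 CPM on the left and 228 to 343 CPM on the right.

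FOSB, a Fos protein known in the rodent brain for its build-up after repeated stimulation, stood at 39.7 and 36.5 CPM in shNELFE cells with EPZ-5676 and HMBA, 40.9 CPM in shNELFE cells with HMBA, 27.9 CPM in shCTL cells with both and 27.2 CPM in shCTL cells with HMBA. Without HMBA the values were 6.5 and 5.08 CPM in shNELFE cells with EPZ-5676 and with DMSO, and 4.48 and 4.69 CPM in the matching shCTL cells. The arms lay far apart, and the HMBA effect was 2.75 ± 0.16 in shNELFE cells (edgeR adjusted p = 1.51e-06) and 2.58 ± 0.17 in shCTL cells (adjusted p = 5.44e-06). FOSB lies within ERCC1 on the opposite strand, without shared exons.

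FOSL1 and FOSL2 encode FRA-1 and FRA-2, Fos proteins that lack the long transactivating region of FOS, and FOSL1 is a known target of RAS and MAP kinase signalling. FOSL1 stood at 116 and 106 CPM in shNELFE cells with EPZ-5676 and HMBA, 157 CPM in shNELFE cells with HMBA, 99.8 CPM in shCTL cells with both and 143 CPM in shCTL cells with HMBA. Without HMBA it stood at 260.2 and 343 CPM in shNELFE cells with EPZ-5676 and with DMSO, and at 228 and 332 CPM in the matching shCTL cells. Here the libraries with HMBA were the low ones. The effect was -1.18 ± 0.10 in shNELFE cells (edgeR adjusted p = 1.45e-05) and -1.20 ± 0.11 in shCTL cells (adjusted p = 3.62e-05), 2.27-fold and 2.3-fold lower. The departure between the 2 backgrounds was 0.02 ± 0.15 and changed sign with unscaled totals.

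FOSL2 stood at 20.2 and 24.4 CPM in shNELFE cells with both compounds, 29.8 CPM in shNELFE cells with HMBA, 28.5 CPM in shCTL cells with both and 29 CPM in shCTL cells with HMBA. The levels without HMBA were 35.3 and 59 CPM in shNELFE cells with EPZ-5676 and with DMSO, and 32.4 and 48.5 CPM in the matching shCTL cells. The step between the arms was narrow. The effect was -0.83 ± 0.17 in shNELFE cells (edgeR adjusted p = 0.00234) and -0.45 ± 0.18 in shCTL cells, which did not pass (adjusted p = 0.0674). In shCTL cells it passed with unscaled totals (adjusted p = 0.0306), with no filter on low counts (0.0427), and without replicate 1 (0.0133) or replicate 2 (0.042) of shNELFE cells with both compounds or shCTL cells with both (0.0364). Without shCTL cells with HMBA it was -0.18.

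Among the Jun genes, JUNB had the highest level per kilobase of exon in each of the 9 libraries. JUNB, which is often a weaker activator than JUN and can oppose it, stood at 286 and 255 CPM in shNELFE cells with both compounds, 284 CPM in shNELFE cells with HMBA, 171 CPM in shCTL cells with both and 160.4 CPM in shCTL cells with HMBA. Without HMBA it stood at 46.5 and 48.8 CPM in shNELFE cells with EPZ-5676 and with DMSO, and at 52.5 and 65.9 CPM in the matching shCTL cells. The 3 shNELFE libraries with HMBA stood highest of the 9. The HMBA effect was 2.54 ± 0.14 in shNELFE cells (edgeR adjusted p = 1.14e-06) and 1.49 ± 0.14 in shCTL cells (adjusted p = 2.83e-05). JUNB lies wholly within HOOK2 on the opposite strand with overlapping exons. HOOK2 had 353 to 712 counts in these libraries, while JUNB had 751 to 4136. The kit marks strand, but the strand setting of the counting is not given in the sources used here.

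JUN, the founding member of the family and a target of JNK, stood at 47.9 and 46.8 CPM in shNELFE cells with both compounds, 42.4 CPM in shNELFE cells with HMBA, 75.9 CPM in shCTL cells with both and 64.1 CPM in shCTL cells with HMBA. Without HMBA, JUN had 12.3 and 14.6 CPM in shNELFE cells with EPZ-5676 and with DMSO, and 15 and 25.8 CPM in the matching shCTL cells. Unlike FOS and JUNB, JUN was highest in the shCTL libraries with HMBA. Its HMBA effects were nearly equal, 1.79 ± 0.22 in shNELFE cells (edgeR adjusted p = 0.000123) and 1.80 ± 0.23 in shCTL cells (adjusted p = 0.000185).

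JUND, the Jun gene that most cells express steadily and that is known to slow proliferation in mouse fibroblasts, stood at 69.6 and 55.3 CPM in shNELFE cells with both compounds, 63.2 CPM in shNELFE cells with HMBA, 57.6 CPM in shCTL cells with both and 44.3 CPM in shCTL cells with HMBA. Without HMBA, JUND had 15 and 17.9 CPM in shNELFE cells with EPZ-5676 and with DMSO, and 14.9 and 20.6 CPM in the matching shCTL cells. The shRNA arms overlapped on both sides. The HMBA effect was 1.94 ± 0.20 in shNELFE cells and 1.53 ± 0.21 in shCTL cells (edgeR adjusted p = 3.83e-05 and 0.000284).

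ATF3, a stress-induced factor that can repress as a homodimer and activate with a Jun partner, stood at 56.4 and 52.6 CPM in shNELFE cells with both compounds, 52.5 CPM in shNELFE cells with HMBA, 56.6 CPM in shCTL cells with both and 47.4 CPM in shCTL cells with HMBA. Without HMBA it stood at 8.17 and 6.97 CPM in shNELFE cells with EPZ-5676 and with DMSO, and at 10 and 8.29 CPM in the matching shCTL cells. Its 5 libraries with HMBA lay closer together than those of FOS. The HMBA effect was 2.80 ± 0.14 in shNELFE cells and 2.50 ± 0.14 in shCTL cells (edgeR adjusted p = 7.67e-07 and 2.59e-06).

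**Figure D2:**
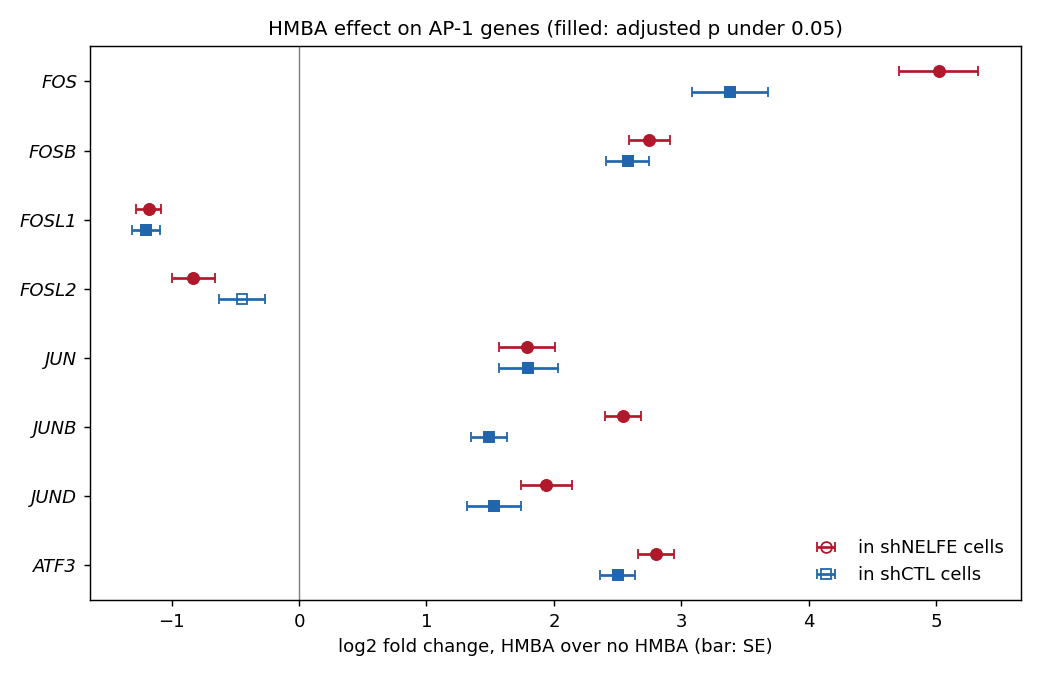
Log2 fold change with HMBA over without (horizontal axis, bars are SE from edgeR) for each gene in shNELFE cells (red circles) and shCTL cells (blue squares), filled where the adjusted p was under 0.05. FOS and JUNB lie farther right in shNELFE cells (5.02 and 2.54) than in shCTL cells (3.38 and 1.49), and FOSL2 in shCTL cells is the open symbol.

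The 6 rises with HMBA and the fall of FOSL1 held in both backgrounds under each of 8 other settings on these 9 libraries or on the 8 numbered 2, and when each library was left out. Unscaled totals put the median log2 change of all genes at -0.29 in shNELFE cells and -0.20 in shCTL cells, in place of 0.02 and 0.01. Of the genes called with HMBA, 48.4% in shNELFE cells and 45.7% in shCTL cells were higher, and with unscaled totals 26.4% in shNELFE cells and 30% in shCTL cells. The 6 genes were called higher on either scale, and with unscaled totals FOS had an effect of 4.70 in shNELFE cells and 3.17 in shCTL cells. Mitochondrial genes took 8.87% to 12.2% of counts with HMBA and 6.12% to 6.90% without. The 3 endothelial markers summed to 9.16 to 13.4 CPM with HMBA, most of it PECAM1, and to 1.71 to 2.88 CPM without. The 9 mesenchymal markers summed to 63.6 to 104 CPM with HMBA and to 34.9 to 66.4 CPM without. Their part in the result was not tested. Fewer cells of a type and less RNA per cell cannot be told apart in these bulk libraries.

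AP-1 and ATF sites were looked for in the promoters of the 8 genes, whatever the direction of their change with HMBA. Of the 8 genes, 7 matched a RefSeq start (build GRCh38.p14), FOSL1 being named only, and the 250 bases before it were searched, without the bases after it. TGANNTCA or TGACGT, both of which are in the ATF and CREB site TGACGTCA and so overlap there, occurred on either strand in 6 of the 7 genes, or 85.7%, and in 15.3% of 35116 promoters of that length. The first share counts a gene with a match at any start, and the second counts each promoter, so the units differ. ATF3 has 2 starts, and its window at the second has no match. JUNB was the one without these letters in its window. Within these 250 bases, the TRE letters TGANTCA occurred in none of the 7 and in 6.57% of all promoters. The CArG box, bound by serum response factor, occurred there in none of the 7 and in 1.16%. Bases farther upstream were not searched, so sites there would be missed. TGANNTCA alone was in 10.1% and TGACGT alone in 7.1% of all promoters. A match is a run of letters, not a shown binding site. One stretch of 30 bases per gene is shown 5′ to 3′ on the gene's own strand, with the match in capitals, to place the motif in the 5 genes with a match that rose and in FOSL2, which fell in shNELFE cells.
FOS: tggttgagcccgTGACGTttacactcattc
FOSB: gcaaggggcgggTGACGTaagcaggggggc
JUN: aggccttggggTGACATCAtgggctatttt
JUND: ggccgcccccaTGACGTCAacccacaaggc
ATF3: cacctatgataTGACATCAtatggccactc
FOSL2: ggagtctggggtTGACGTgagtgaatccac

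The FOS stretch is chr14:75278752-75278781 on the plus strand, with the match from base -64 to -59 before the start. In FOSB (chr19:45467924-45467953, plus strand) the match runs from -60 to -55, and in FOSL2 (chr2:28392780-28392809, plus strand) from -66 to -61. The JUN stretch (chr1:58784096-58784125, minus strand) has its match from -67 to -60. These 4 matches lie within a few bases of each other relative to the start, 3 of them in genes higher with HMBA and 1 in FOSL2, which was lower. JUND (chr19:18281804-18281833, minus strand) has the full TGACGTCA from -200 to -193, and other matches from -87 to -82 (on the opposite strand) and from -54 to -47. In ATF3 (chr1:212565273-212565302, plus strand) the match at -123 to -116 precedes the first of 2 annotated starts, and the window at the second start has none.

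The make-up of AP-1 mRNA differed between the arms. Per kilobase of merged exon, FOSL1 was 16.5% to 29.4% of the summed CPM of the 8 genes in the 5 libraries with HMBA and 70.2% to 77.3% in the 4 without. JUNB was 34.3% to 43.6% with HMBA and 11.4% to 16.8% without. FOS took 11.9% to 21.2% with HMBA and 0.818% to 1.68% without it. On TMM-scaled totals, the summed level was 257 to 372 CPM per kb with HMBA and 172 to 244 CPM per kb without. The nearest libraries were shCTL cells with HMBA (257) and shCTL cells with DMSO (244). Their scaling factors were 0.9685 and 1.108, so on unscaled totals their order is reversed and the arms overlap. The sum was higher in the 3 shNELFE libraries (333 to 372) than in the 2 shCTL libraries (257 and 259) with HMBA.

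**Figure D3:**
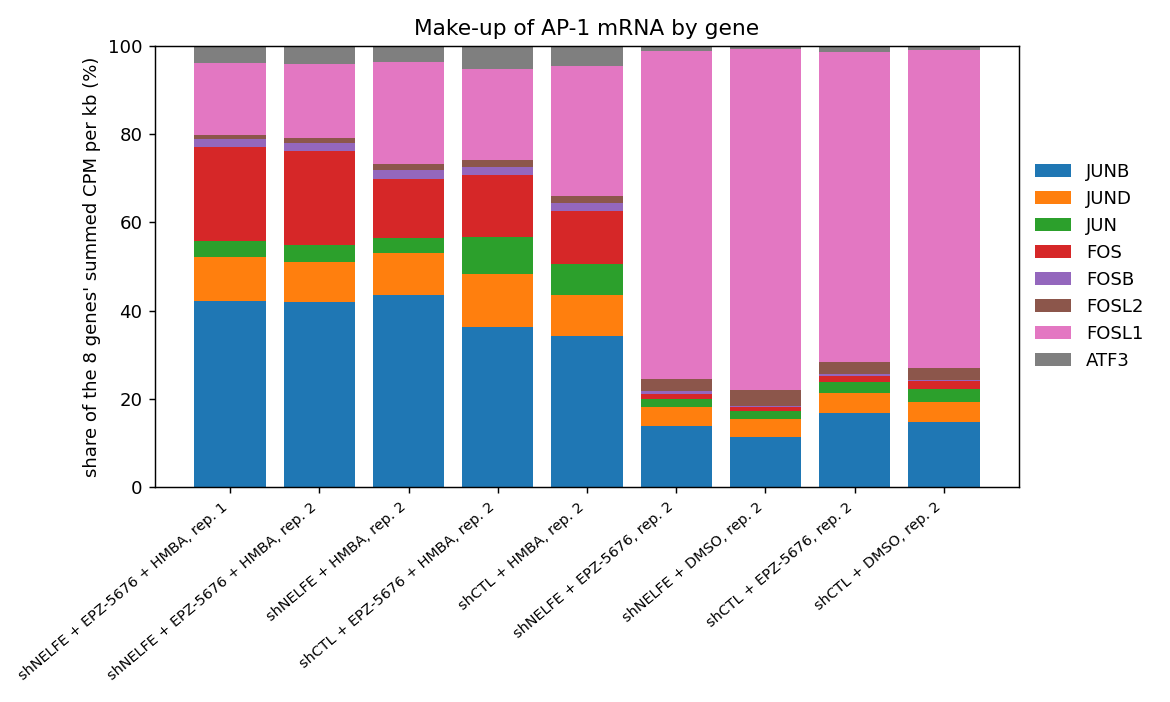
Share of each gene in the summed CPM per kb of the 8 AP-1 genes (vertical axis, percent), 1 bar per library. FOSL1 fills 70.2% to 77.3% of the 4 bars without HMBA on the right and 16.5% to 29.4% of the 5 bars with HMBA on the left, where JUNB is the largest share.

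On the same per-length scale, JUNB ranked first in every library with HMBA and FOSL1 in every library without. With HMBA the order after JUNB was FOSL1, FOS and JUND in shNELFE cells with HMBA and in both shCTL groups, and FOS before FOSL1 in shNELFE cells with both compounds. FOSL2 was the lowest of the 8 in each of the 5 libraries with HMBA, at 2.83 to 4.17 CPM per kb. With DMSO it was FOSB that was lowest, at 0.916 CPM per kb in shNELFE cells and 0.845 in shCTL cells, beside 1.73 and 2.05 for ATF3. Only shNELFE cells with both compounds had 2 of the 9 libraries, which differed by 1.02-fold (JUN) to 1.26-fold (JUND). Steps of that size between neighbours, such as JUN and ATF3 at 12 and 13 CPM per kb in shNELFE cells with HMBA, are not told apart, and likewise JUNB and FOSL1 at 88.1 and 75.7 CPM per kb in shCTL cells with HMBA.

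The shRNA comparison asks whether less NELFE changed these genes. NELFE itself was lower with shNELFE, with a log2 change of -2.20 ± 0.15 with HMBA (edgeR adjusted p = 0.000233) and -1.98 ± 0.17 without it (adjusted p = 0.00316). The second call was lost with added EPZ-5676 terms (0.122) and without shNELFE cells with DMSO (0.216), shCTL cells with EPZ-5676 (0.141) or shNELFE cells with EPZ-5676 (0.0632). With HMBA, 1 of the 8 genes was called higher with shNELFE, JUNB, and none lower, against 0.476% and 0.382% of all genes. FOS, FOSB and JUNB lay wholly above and JUN wholly below shCTL, as did 16.6% and 16.7% of all genes. Without HMBA no AP-1 gene was called by edgeR, DESeq2 or limma-voom, against 0.00671% of all genes higher and 0.0201% lower in edgeR. JUN and JUNB had an unadjusted p under 0.05 in edgeR, as did 1313 of the 14912 genes tested. Here FOSB lay wholly above and FOS, JUN, JUNB and ATF3 wholly below shCTL, as did 22.5% and 22.1% of all genes. The median log2 effect over the 8 genes was 0.22 with HMBA and -0.19 without it, against 0.00 over all genes in both.

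Over libraries with and without EPZ-5676, JUNB averaged 275 ± 17.5 CPM in shNELFE cells with HMBA (SD, n = 3) and 166 ± 7.44 CPM in shCTL cells with HMBA (SD, n = 2). Such an SD mixes treatments, and a larger share of the shNELFE libraries had EPZ-5676. The shNELFE effect with HMBA was 0.74 ± 0.12, or 1.67-fold (edgeR adjusted p = 0.0335). This call was kept with RLE scaling, unscaled totals, no filter, DESeq2, limma-voom and the 8 libraries numbered 2. It was lost with 8 group means (0.82) and with added EPZ-5676 terms (0.359). It was also lost without any 1 of the 7 libraries other than those of shNELFE cells with both compounds (0.0828 to 0.426), while the log2 effect stayed at 0.64 to 0.88. Without HMBA the JUNB effect was -0.31 ± 0.14 (adjusted p = 0.56).

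Over libraries with and without EPZ-5676, FOS averaged 214 ± 51.4 CPM in shNELFE cells with HMBA (SD, n = 3) and 109 ± 13.2 CPM in shCTL cells with HMBA (SD, n = 2). The matched pairs of libraries numbered 2 differed by a log2 of 0.96 with EPZ-5676 and 0.65 without it. The effect of 0.95 ± 0.25 did not pass (edgeR adjusted p = 0.117). It passed with DESeq2 (0.00473), with no filter (4.28e-06), and without replicate 1 (0.0114) or replicate 2 (0.0395) of shNELFE cells with both compounds. Without HMBA the FOS effect was -0.70 ± 0.31 (adjusted p = 0.572), and it was 0.01 without shCTL cells with DMSO. FOSB had 0.50 ± 0.14 with HMBA (adjusted p = 0.131) and 0.33 ± 0.18 without it (0.65). With HMBA it passed without replicate 1 (0.0298) or replicate 2 (0.0328) of shNELFE cells with both compounds.

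JUN differed in sign from JUNB with HMBA, but not without it. Over libraries with and without EPZ-5676, JUN averaged 45.7 ± 2.88 CPM in shNELFE cells with HMBA (SD, n = 3) and 70 ± 8.36 CPM in shCTL cells with HMBA (SD, n = 2). The effect with HMBA was -0.60 ± 0.20 and did not pass (edgeR adjusted p = 0.188). Without HMBA the effect was -0.59 ± 0.23 (adjusted p = 0.513), nearly the same size. With HMBA it passed with no filter (0.00982) and without replicate 1 of shNELFE cells with both compounds (0.0342), and it was -0.32 without shCTL cells with both compounds. FOSL1, FOSL2, JUND and ATF3 had effects between -0.17 and 0.31 with HMBA and between -0.27 and 0.21 without it, none past the threshold.

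**Figure D4:**
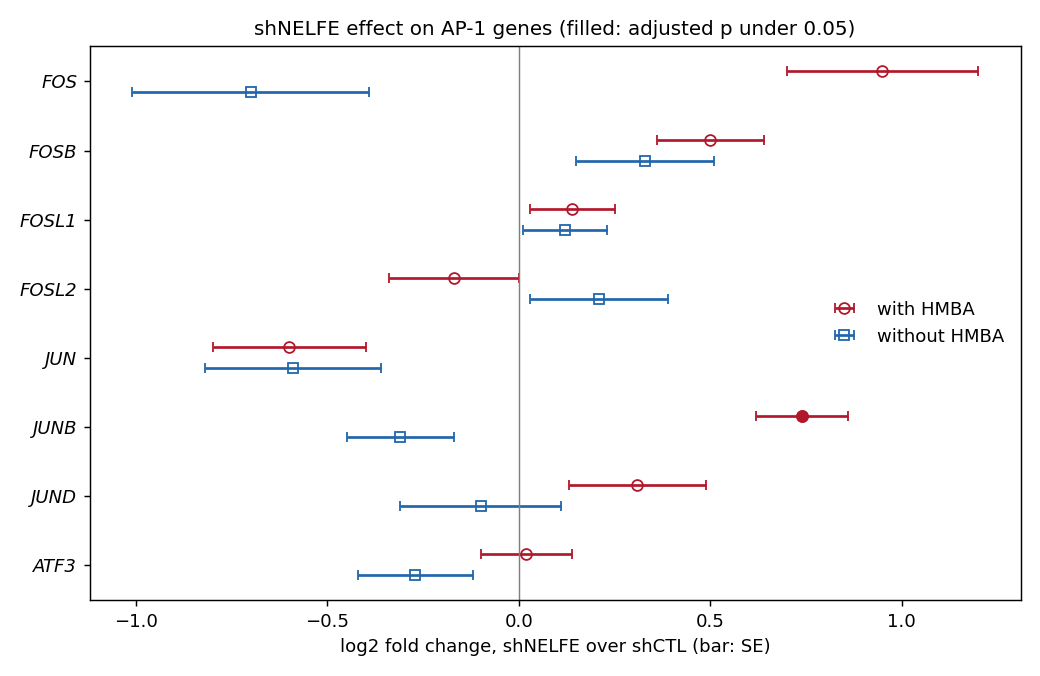
Log2 fold change of shNELFE over shCTL (horizontal axis, bars are SE from edgeR) with HMBA (red circles) and without HMBA (blue squares), filled where the adjusted p was under 0.05. FOS and JUNB lie right of 0 with HMBA (0.95 and 0.74) and left of it without (-0.70 and -0.31), JUN lies left of 0 in both, and JUNB with HMBA is the filled symbol.

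The departure from additivity, the HMBA effect in shNELFE cells minus that in shCTL cells, was called for none of the 8 genes, against 0.0134% of all genes higher and 0% lower. FOS and JUNB had an unadjusted p under 0.05 in edgeR, as did 623 of the 14912 genes tested. The FOS departure was 1.64 ± 0.40 (SE, edgeR adjusted p = 0.879) and the JUNB departure 1.05 ± 0.18 (adjusted p = 0.297). limma-voom called none of the 8. DESeq2 called both (0.0125 and 0.00105), as did the fit with no filter (1.65e-06 and 0.00172), and JUNB was called with the 8 libraries numbered 2 (0.00564). In the other fits on the 9 libraries neither was called. Taken from the libraries numbered 2, the FOS departure was 1.09 with EPZ-5676 and 1.73 without it, and that of JUNB 0.75 and 1.26. Without shCTL cells with DMSO, the library with the highest FOS level without HMBA, the FOS departure was 0.88 and that of JUNB 0.88. The departures of the other 6 genes lay between -0.38 (FOSL2) and 0.41 (JUND). The median was 0.23 over the 8 genes and 0.01 over all genes.

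For EPZ-5676, edgeR and limma-voom called 0 of the 8 AP-1 genes, against 0.0469% of all genes higher and 0.0604% lower in edgeR. FOSL1 and FOSL2 had an unadjusted p under 0.05 in edgeR, as did 1599 of the 14912 genes tested. FOSL1 was lower with EPZ-5676 in all 4 matched pairs of libraries numbered 2, with log2 differences of -0.56 with HMBA in shNELFE cells, -0.52 with HMBA in shCTL cells, -0.40 without HMBA in shNELFE cells and -0.54 without HMBA in shCTL cells. The effect was -0.49 ± 0.08 (edgeR adjusted p = 0.056), just short of the threshold. It passed with unscaled totals (0.0499), no filter (0.000751), DESeq2 (5.88e-05), and without replicate 1 (0.000231) or replicate 2 (0.0225) of shNELFE cells with both compounds. FOSL2 was also lower in all 4 pairs, with differences of -0.29, -0.03, -0.74 and -0.58 in the same order. The -0.03 was well within the 1.21-fold difference between its 2 libraries of shNELFE cells with both compounds. The share of all genes lower in all 4 pairs was not counted. The FOSL2 effect was -0.45 ± 0.12 (edgeR adjusted p = 0.214). It passed with no filter (0.0242) and without replicate 1 of shNELFE cells with both compounds (0.0272).

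FOSL1 had 4 separate treatment levels whatever the shRNA. It stood at 99.8 to 116 CPM with both compounds, 143 to 157 CPM with HMBA, 228 to 260.2 CPM with EPZ-5676 and 332 to 343 CPM with DMSO. FOSL2 had the same order on TMM-scaled totals, at 20.2 to 28.5 CPM with both compounds, 29 to 29.8 CPM with HMBA, 32.4 to 35.3 CPM with EPZ-5676 and 48.5 to 59 CPM with DMSO. Its step between both compounds and HMBA was smaller than the 1.21-fold between its 2 libraries of shNELFE cells with both compounds, and on unscaled totals shCTL cells with both compounds and shNELFE cells with HMBA were both at 27.2 CPM. Of all genes 1.3% had this order and 0.798% its reverse. None of the other 6 genes had either, and the pattern was looked for after the values were seen. The EPZ-5676 effects of FOS (0.14), FOSB (0.03), JUN (-0.11), JUNB (-0.09), JUND (-0.07) and ATF3 (0.18) all had adjusted p of 0.515 or more in edgeR. The median over the 8 genes was -0.08, against 0.01 over all genes.

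Over the 9 libraries, 11599 genes were ranked on how their log2 CPM correlated (Pearson's r) with each AP-1 gene. These r describe libraries that share a contrast, since HMBA splits them into 5 and 4. FOS was most like GADD45B (r = 0.995) and PCBP2 (0.992), and JUNB most like IER2, another immediate early gene (0.996), and SOCS1 (0.994). GADD45B stood at 197 to 337 CPM with HMBA and at 23.1 to 35.7 CPM without. FOSB came closest to CRISPLD2 and FAM53C, and ATF3 to EFNB1 and MIDN, all at 0.998. JUN was most like CPD (0.996) and ALDH6A1 (0.992), and JUND most like SERTAD1 (0.993) and CARHSP1 (0.992). FOSL1 was most like MET, the hepatocyte growth factor receptor gene (0.994), at 106 to 180.1 CPM with HMBA and 316 to 469 CPM without, followed by SCMH1 (0.991). FOSL2 had the loosest neighbours, YAF2 (0.969) and MAP7D1 (0.968). Among the 8 genes, FOS and JUNB had an r of 0.99, FOS and FOSL1 one of -0.908.

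Of 19 other genes of the AP-1 family and its near relatives, 16 were tested. With HMBA 4 were called higher and 8 lower in shNELFE cells, and 4 higher and 6 lower in shCTL cells, with medians of -0.43 and -0.58 against 0.02 and 0.01 over all genes. Of all genes, 25.5% were called higher and 27.1% lower in shNELFE cells, and 20.5% higher and 24.3% lower in shCTL cells. The genes named here and for the next lists are among those with the smallest p in each background, and a gene named for one background was not tested for a difference from the other. The small MAF genes, which lack a transactivating region, split. MAFF stood at 47.9 to 83.3 CPM with HMBA and at 13.2 to 23.5 CPM without, a log2 change of 2.20 ± 0.18 in shNELFE cells (edgeR adjusted p = 1.05e-05) and 1.50 ± 0.19 in shCTL cells (0.000177). MAFK stood at 18.2 to 26.6 CPM with HMBA and at 48.2 to 65.6 CPM without, and MAFG stood at 23.5 to 35.2 CPM with HMBA and at 55.5 to 64.3 CPM without. MAFK was called lower in both backgrounds (-1.27 ± 0.12 in shNELFE cells and -1.45 ± 0.13 in shCTL cells) and MAFG had -1.21 ± 0.13 in shCTL cells. In shNELFE cells MAFG had 25.9 to 35.2 CPM with HMBA and 55.7 to 64.3 CPM without. None of these 16 genes was called for shNELFE, the departure or EPZ-5676.

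Signals reach AP-1 genes through the MAP kinases and serum response factor. All 32 genes of that list were tested, and with HMBA 9 were called higher and 11 lower in shNELFE cells, and 8 higher and 7 lower in shCTL cells, against 25.5% higher and 27.1% lower of all genes in shNELFE cells and 20.5% higher and 24.3% lower in shCTL cells. The medians were -0.16 and -0.07, against 0.02 and 0.01. MAP2K3, an activating kinase of p38, stood at 549 to 678 CPM with HMBA and at 156 to 190.5 CPM without (1.94 ± 0.13 in shNELFE cells and 1.72 ± 0.13 in shCTL cells). MAP3K8 had a log2 change of 2.47 ± 0.31 in shNELFE cells, and in shCTL cells it stood at 4.1 to 4.13 CPM with HMBA and 0.937 to 1.61 CPM without. MAP2K1, an activating kinase of ERK, had 0.67 ± 0.11 in shCTL cells, and in shNELFE cells it stood at 100.5 to 112 CPM with HMBA and 63.6 to 68.8 CPM without. MAP2K7, which acts on JNK, had -0.78 ± 0.13 in shCTL cells, and in shNELFE cells it stood at 25.4 to 32.1 CPM with HMBA and 43.1 to 48.2 CPM without. Each of these 3 thus lay on the same side in the other background. The share of all genes that did so within a background was not counted. With 8 group means, MAP2K1 (adjusted p = 0.116) and MAP2K7 (0.0724) were not called. SPRED1, an inhibitor of RAS signalling, had -1.21 ± 0.16 in shNELFE cells, with 14.2 to 20.8 CPM with HMBA and 40.9 to 45 CPM without, and in shCTL cells it stood at 21 to 23.1 CPM with HMBA and 39.7 to 43.4 CPM without. None of the 32 was called in the other 4 comparisons.

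Of 42 genes known as AP-1 targets in other cells, 31 were tested, and with HMBA 10 were called higher and 9 lower in shNELFE cells, and 6 higher and 11 lower in shCTL cells, with medians of 0.13 and -0.24 against 0.02 and 0.01 over all genes. Over all genes, 25.5% were called higher and 27.1% lower in shNELFE cells, and 20.5% higher and 24.3% lower in shCTL cells. CDKN1A, which encodes the cell cycle inhibitor p21, stood at 538 to 1229 CPM with HMBA and at 85.2 to 168 CPM without. The growth factor gene EREG stood at 28.9 to 66.9 CPM with HMBA and at 446 to 877 CPM without, and the cytokine gene LIF at 3.18 to 11.6 CPM with HMBA and at 107 to 201 CPM without. Their log2 changes in shNELFE cells were 2.92 ± 0.13, -3.85 ± 0.12 and -4.66 ± 0.16, and in shCTL cells 2.50 ± 0.13, -4.07 ± 0.14 and -4.15 ± 0.18 (all edgeR adjusted p of 2.20e-06 or less). With shNELFE in the presence of HMBA, 4 were called higher and 0 lower, against 0.476% and 0.382% of all genes. Among them were CDKN1A at 1000.3 to 1229 CPM with shNELFE and 538 to 569 CPM with shCTL (1.04 ± 0.12) and CCND1, encoding cyclin D1, at 494 to 566 CPM with shNELFE and 319 to 329 CPM with shCTL (0.74 ± 0.11). The CDKN1A call was lost without shNELFE cells with HMBA (adjusted p = 0.0707), shCTL cells with HMBA (0.254) or shCTL cells with both compounds (0.257), and with 8 group means (0.29) or added EPZ-5676 terms (0.254). The CCND1 call was lost (0.0791 to 0.527) without any 1 library other than the 2 of shNELFE cells with both compounds, and with 8 group means (1) or added EPZ-5676 terms (0.359). EREG was the 1 gene of the list called with EPZ-5676 (-0.70 ± 0.09, edgeR adjusted p = 0.0153), and this call was lost without any 1 library other than the 2 of shNELFE cells with both compounds (0.076 to 0.238), and with 8 group means (0.549) or added EPZ-5676 terms (0.373). None was called for shNELFE without HMBA or for the departure.

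The 7 libraries set apart had other AP-1 levels than the 9, on totals scaled over all 16. FOS lay at 1.49 to 9.85 CPM in the 7 and at 6.14 to 249 CPM in the 9, and ATF3 lay at 0.59 to 7.17 CPM in the 7 and at 6.87 to 56.5 CPM in the 9. FOSL2 reached 228 CPM in the 7, with a median of 175, against a highest value of 58.2 CPM in the 9. JUND at 69.7 to 145 CPM in the 7 lay wholly above its 14.4 to 67.8 CPM in the 9. FOSL1 split the 7 libraries: it had 208 CPM in shCTL replicate 1 with both compounds and 202 CPM in shCTL replicate 1 with DMSO, and 0.191 to 1.29 CPM in the other 5. Those same 2 libraries had 205 and 207 CPM of JUN, against 8.64 to 37.9 CPM in the other 5, and 15.1 and 12.8 CPM of JUNB, against 76.8 to 127 CPM. Summed epithelial markers were 6928 to 31769.9 CPM in the 7 and 4581 to 8087 CPM in the 9, and mesenchymal ones 12.9 to 7682 CPM in the 7 and 34.4 to 104 CPM in the 9, and their part in these levels was not tested.

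**Figure D5:**
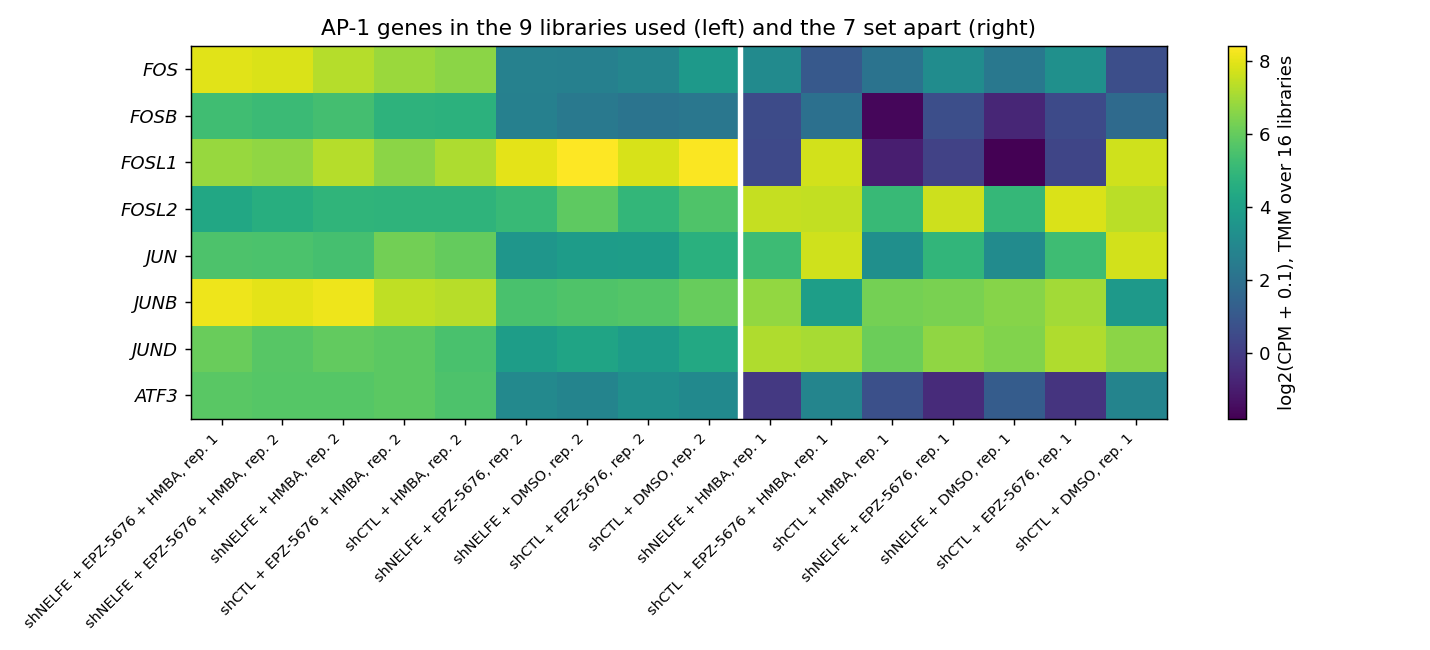
Log2(CPM + 0.1) of the 8 AP-1 genes (rows) in the 16 libraries (columns, colour scale), with the 9 used in the comparisons left of the white line and the 7 set apart on the right. On the right FOSL1 is high in 2 libraries (208 and 202 CPM) and at most 1.29 CPM in the other 5, and FOSL2 reaches 228 CPM.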

How the data were processed

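The data are the authors' deposited counts of reads per gene for 16 libraries, used as deposited. Per the labels' protocols the libraries were made with a stranded mRNA kit. The build was hg38, and the tools listed were HTSeq 0.6.1p1, Cufflinks 2.1.1, edgeR and STAR 2.4.0b, per the submitters' processing notes. The annotation release and strand setting were not given in the sources used. Gene positions and merged exon lengths came from GENCODE 29. Of 60676 identifiers, 42009 had a symbol, 0 rows lacked an identifier and 0 pairs of libraries were identical.

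The model had terms for shRNA, HMBA, their product and EPZ-5676 in edgeR 4.0.16 (R 4.3.3, limma 3.58.1) with TMM scaling, filterByExpr and Benjamini-Hochberg adjustment over 14912 genes. An SE is the log2 fold change divided by the square root of F. CPM use totals TMM-scaled over the 9 libraries unless stated. A count of 3 in a library is 0.168 to 0.223 CPM unscaled in the 9. The code was tested on simulated counts. Alternatives were RLE scaling, unscaled totals, no filter, DESeq2 1.42.0, limma-voom, 8 group means, added EPZ-5676 terms, the 8 libraries numbered 2, all 16 libraries with and without a replicate block, and leaving out each library.

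The 8 genes, the gene lists and the choice of libraries were made with earlier results of these data known. Named were the 8 genes, NELFE and HEXIM1, up to 3 called members per list and comparison with the smallest p, and per AP-1 gene the 2 genes with a symbol and a mean of at least 2 CPM that had the highest r of log2 CPM (prior count 2). Results for some listed genes are not reported here.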

Additional observations from a re-analysis of the deposited data

Results flagged for a closer look

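The shRNA by HMBA departures of FOS (1.64 on the log2 scale) and JUNB (1.05) were singled out because shNELFE lay above shCTL in both matched pairs with HMBA and below it in both pairs without. The share of all genes with this pattern was not counted. The differences were tested as the product term, with edgeR adjusted p of 0.879 and 0.297. That test includes the libraries of these pairs, so it is not separate from the pattern. For FOS, the pair differences were 0.96 (with EPZ-5676) and 0.65 (without it) with HMBA, and -0.14 and -1.08 without HMBA. For JUNB they were 0.58 and 0.83 with HMBA, and -0.17 and -0.43 without.

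In the 7 libraries that enter no comparison, FOSL2 reached 228 CPM (shCTL replicate 1 with EPZ-5676), JUN reached 207 CPM (shCTL replicate 1 with DMSO) and JUND reached 145 CPM (shNELFE replicate 1 with HMBA), above the highest values in the 9 libraries of 58.2, 75.8 and 67.8 CPM.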

How the results depend on the processing

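Of 8 genes and 6 comparisons, all 48 results kept their direction and their side of the threshold with RLE scaling and with limma-voom, 47 with 8 group means and with added EPZ-5676 terms, 44 with DESeq2 and with unscaled totals, 41 with no filter and 40 with the 8 libraries numbered 2. Over the 9 libraries, the HMBA, shNELFE, departure and EPZ-5676 results all rest on 1 library per group, except in shNELFE cells with both compounds. The biological coefficient of variation was 0.1328 over the 9 libraries. It was 0.07467 without replicate 1 and 0.1037 without replicate 2 of shNELFE cells with both compounds, and either step removes the only pair within a group. Without any 1 other library it was 0.1439 to 0.1495. The cause of the changes below was not tested.

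Over all genes, edgeR called 7844 genes for HMBA in shNELFE cells and 6684 in shCTL cells, 128 for shNELFE with HMBA, 4 for shNELFE without HMBA, 2 for the departure and 16 for EPZ-5676. With 8 group means these counts were 4499, 3787, 47, 21, 9 and 40. With no filter the last 4 were 835, 267, 75 and 345, with DESeq2 429, 140, 17 and 157, and with the 8 libraries numbered 2 1005, 644, 36 and 742. limma-voom called 11 for shNELFE without HMBA. With added EPZ-5676 terms the last 4 were 4, 0, 0 and 0, with 710, 260 and 917 genes at an unadjusted p under 0.05 in the 3 at 0. With unscaled totals, the share of calls that were higher was 36% against 55.5% for shNELFE with HMBA, 66.7% of 3 against 25% of 4 for shNELFE without HMBA and 33.3% against 43.8% for EPZ-5676. Leaving out 1 library gave 4286 to 8949, 3895 to 8963, 4 to 1513, 0 to 644, 0 to 36 and 2 to 742.

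With all 16 libraries, and again with the replicate number as a block there, edgeR called 0 genes in each of the 6 comparisons. At an unadjusted p under 0.05 there were 1069, 342, 333, 78, 48 and 56 genes without the block and 2508, 497, 717, 69, 164 and 168 with it. The replicate numbers are not shown to pair the samples, since replicate 1 minus 2 correlated between groups at 0.0851 to 0.933.

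Results that changed sign were the following. With all 16 libraries, shNELFE without HMBA was -0.07 for FOSB, -0.35 for FOSL1, -0.61 for FOSL2 and 0.12 for JUNB. With the replicate block it was 0.07 for FOS, -0.70 for FOSB, -1.39 for FOSL1, -0.26 for FOSL2 and 0.18 for JUNB. shNELFE with HMBA was -0.28 for FOSL1 and 0.16 for FOSL2 over all 16, and -0.58 for FOSL1 with the block. The departure was 0.77 for FOSL2 and 1.30 for JUN over all 16, and 0.18 and 0.99 with the block. EPZ-5676 gave 0.39 for FOSL2, 0.29 for JUN, 0.28 for JUNB and 0.14 for JUND over all 16, and 0.54 for FOSL1, 0.03 for FOSL2, 0.11 for JUN, 0.31 for JUNB, 0.08 for JUND and 0.55 for EREG with the block. HMBA in shNELFE cells gave 0.10 for FOSL1, 0.01 for SPRED1 and 4.39 for EREG with the block. With unscaled totals the departure of FOSL1 was -0.09 and shNELFE with HMBA was -0.08 for ATF3, and with the 8 libraries numbered 2 the departure of FOSL1 was -0.01.

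Leaving out 1 library changed the sign of 11 results, none of which was called. EPZ-5676 ranged from -0.14 to 0.38 for FOS, -0.05 to 0.11 for FOSB, -0.24 to 0.07 for JUN and -0.22 to 0.04 for JUND. The departure ranged from -0.02 to 0.38 for FOSB, -0.03 to 0.09 for FOSL1 and -0.51 to 0.34 for JUN. shNELFE without HMBA ranged from -1.24 to 0.01 for FOS and -0.34 to 0.17 for JUND, and shNELFE with HMBA from -0.05 to 0.08 for ATF3 and -0.40 to 0.14 for FOSL2.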
